A study of Homo sapiens with 2 samples.

Results

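The lymphoid marker genes are 34 genes used to recognise T cells (19 genes) and B cells (15 genes), chosen by name from the 58347 genes of a U2AF2 eCLIP count table and matched by Ensembl identifier. They belong to lineages other than that of HEL, an erythroleukemia line of human origin that shows traits of red cell and platelet precursors, and were read here as off-lineage genes. HEL cells without treatment formed the 1 group, with 2 biological replicates. The assay, eCLIP, crosslinks protein to RNA with ultraviolet light, pulls U2AF2 down with an antibody and sequences the RNA bound to it. HEL is 1 cell line measured in bulk, so few cells with much of an RNA and many cells with little cannot be told apart. Input, control and RNA-seq libraries were not analysed here. A count is therefore no enrichment over input, and the RNA levels of these genes or of their neighbours in HEL are not known from these data.

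U2AF2, the larger chain of the U2AF splicing factor, binds the pyrimidine-rich tract just before a 3′ splice site. T cells are known by the T cell receptor complex and its kinases, and B cells by the B cell receptor, its signalling chains and their transcription factors. Some of these genes are not strictly lymphoid: CD4 is also found on monocytes, and CD7 is carried by some myeloid leukaemias.

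Gene counts totalled 995428 in replicate 1 and 1350116 in replicate 2. The 34 markers together held 499 and 648 of these, or 0.0491% ± 0.00151 (SD, n = 2). A level is given as CPM, the count per 1e+06 counts after scaling of the library sizes. From 3 counts of each library's total, a gene at 0 could still have had 3.01 CPM in replicate 1 and 2.22 CPM in replicate 2. Intervals and these floors cover counting error only. The strand setting of the counting is not given in the sources used here. Genes were therefore separated by the annotation of the strand opposite their exons, and a member's counts may come from either strand. Reads counted to no gene numbered 36374618 in replicate 1 and 50621073 in replicate 2, far more than the gene counts. Every count and CPM given here, low or high, thus rests on a small part of the reads. Whether the uncounted reads include reads of these markers was not tested.

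Most of the markers held few counts. In both libraries 6 of the 34 held 0, against 20.1% of all protein-coding genes, and 10 more held 0 in 1 library. Summed over the libraries, the 34 markers had a median of 3.5 counts and the 19817 protein-coding genes one of 4. In log2 CPM the median came to 1.57 for the markers and 1.78 for all protein-coding genes. Only TCF7, CD4, CD5, VPREB1 and CD6 held at least 10 counts in each library, which is 5 of 34 (14.7%), against 24.8% of all protein-coding genes. A gene at or above this minimum is said below to pass. These 5 genes carried 88.4% ± 1.08 (SD, n = 2) of the counts of the markers, and TCF7 alone 59.0% ± 5.29.

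**Figure D1:**
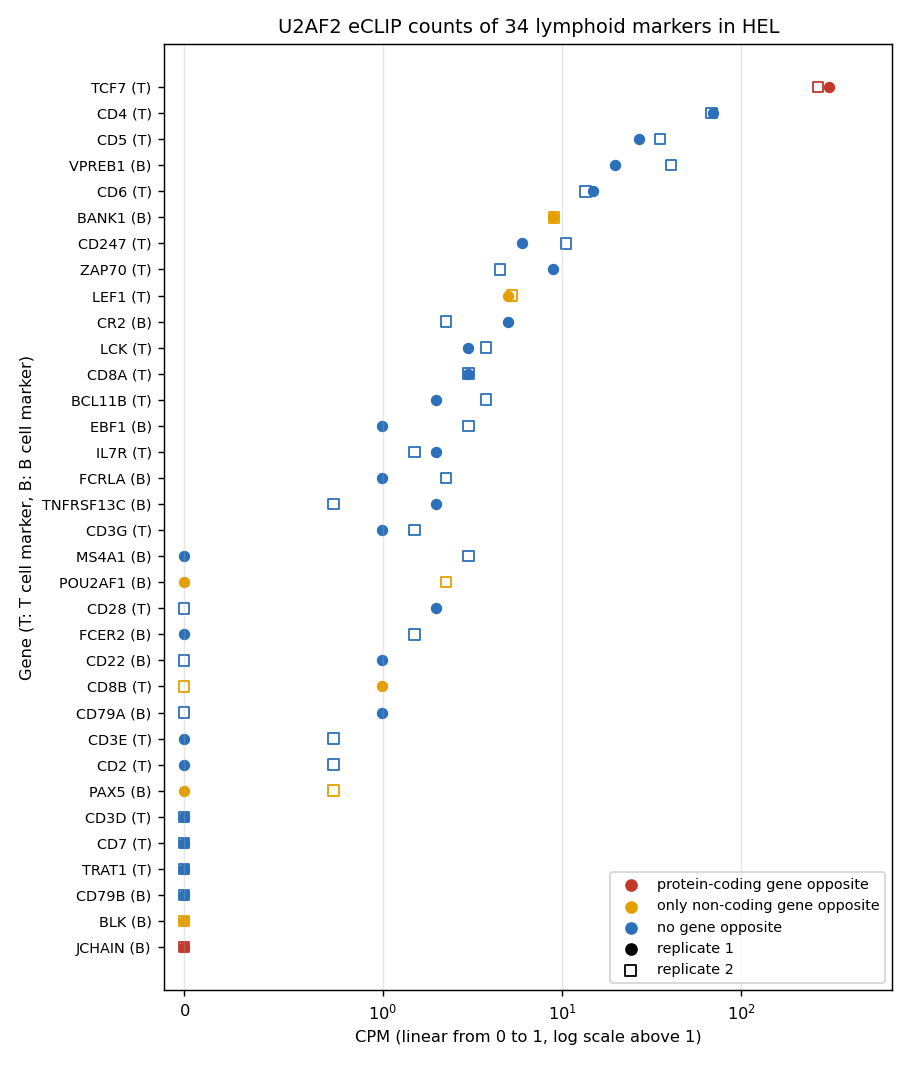
CPM of each of the 34 lymphoid markers in replicate 1 (filled circles) and replicate 2 (open squares), ordered from the highest to the lowest mean log2 CPM, on an axis that is linear up to 1 CPM and logarithmic above. Colour gives what the annotation places opposite the exons; TCF7 stands highest, with CD4 next, and 6 genes lie at 0 in both libraries.

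The sequences most relevant to these genes are pyrimidine-rich stretches, since U2AF2 binds such RNA and the strand of the reads is uncertain. For TCF7, CD4 and VPREB1, the 30-base exon windows richest in pyrimidines are shown 5′ to 3′ on the gene's own strand and on the strand opposite, as DNA, from GENCODE 29 transcripts (GRCh38). TCF7 and CD4 led the list by counts, and VPREB1 held the most counts per kb of exon summed over the libraries. Capitals mark the longest unbroken run of C and T.
TCF7, own strand, chr5:134144544-134144573: CTCCCTCCCTCCCattcttcccactgcctc
TCF7, opposite strand, chr5:134147974-134148003: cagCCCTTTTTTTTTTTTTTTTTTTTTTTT
TCF7, opposite strand within the SKP1 overlap, chr5:134151679-134151708: cttccacatctgtagttcttgcgaCCTTCT
CD4, own strand, chr12:6820642-6820671: ctccttttccctaTTTCCTTCTCCTCCTgt
CD4, opposite strand, chr12:6814566-6814595: CCTCTCTCTCTTCTTTCCTCCTCTCCCCTC
VPREB1, own strand, chr22:22245139-22245168: cccccaggTCCCCCCTCgcttctctggatc
VPREB1, opposite strand, chr22:22245265-22245294: tcccaCTCCCTCTCCCTCTCCTCCTTCTCC

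In TCF7 the own-strand window held 27 pyrimidines and the opposite window 28, of which 24 were T. In CD4 the values were 28 and 30, and in VPREB1 23 and 29. Of 9591840 windows taken at every 10th position of the exons of all protein-coding genes, 0.168%, 0.0896% and 2.29% held at least as many pyrimidines on the own strand as those of TCF7, CD4 and VPREB1. On the opposite strand the shares were 0.0771%, 0.0170% and 0.0378%. Each window shown is the richest of its gene, so a low share follows from that choice. Within the bases that TCF7 shares with SKP1 the richest window on the strand of SKP1 held 22 pyrimidines. These windows describe the exons and are not sites: the table gives 1 count per gene and library and no read positions.

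Opposite-strand genes were compared first, because a read counted on the wrong gene of an overlapping pair would give an off-lineage gene counts of its neighbour. A gene of the other strand covered the exons of 8 of the 34 markers (23.5% of them), against 42.2% of all protein-coding genes. It was protein-coding for TCF7 and JCHAIN and non-coding for CD8B, LEF1, PAX5, BLK, BANK1 and POU2AF1. Of the other 26 markers, 4 (LCK, BCL11B, CD6 and EBF1) had an opposite-strand gene within introns only, and 22 had none anywhere in their span. The 8 markers held 62.3% ± 4.90 (SD, n = 2) of the markers' counts. With TCF7 left out, a choice made once its values were known, the other 7 held 8.00%.

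**Figure D2:**
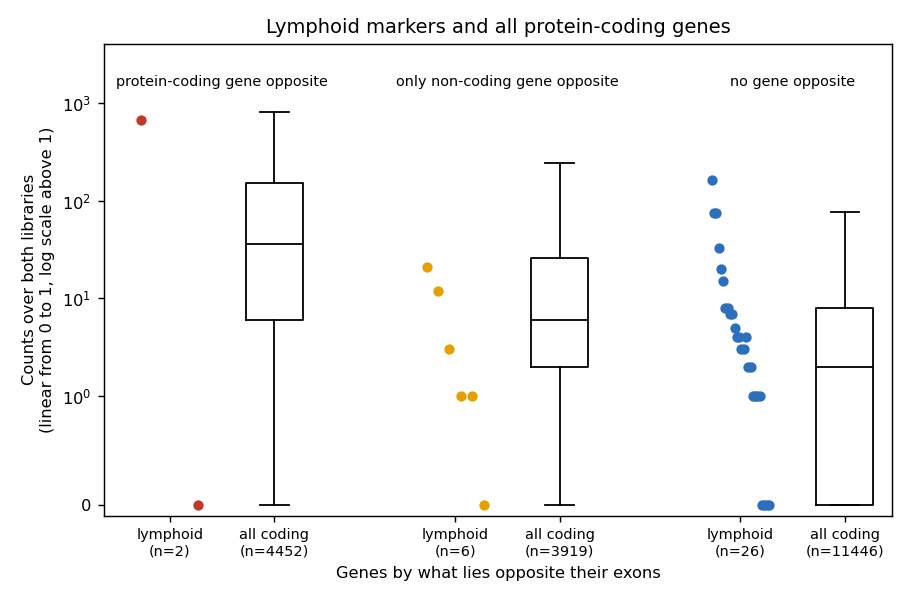
Counts over both libraries for each lymphoid marker (points) and for all protein-coding genes (boxes: median and quartiles, whiskers: 5th and 95th percentiles) with a protein-coding gene, only a non-coding gene or no gene opposite their exons, on an axis linear up to 1 and logarithmic above. The protein-coding genes fall in this order of class, with medians of 36, 6 and 2 counts. Markers above the upper quartile of their own class are TCF7 and 6 of the 26 with no gene opposite, led by CD4. Part of any class lies above its upper quartile by definition, so this place alone does not set a marker apart.

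Markers with no opposite gene had a median of 4 counts, against 2 for the 11446 protein-coding genes of that class, and 4 of 26 (15.4%) had at least 10 counts in each library, against 12.3% of those genes. The 6 markers with only a non-coding gene opposite had a median of 2 counts, against 6 for the 3919 protein-coding genes of that kind, and 0 of 6 passed, against 26.1% of those genes. For markers with a protein-coding gene opposite, 1 of 2 passed, against 56.1% of such genes. The median log2 CPM of the 8 markers with an opposite gene minus that of the 26 without was -0.41, and its sign was not stable: 0.15 per kb of exon and 2.90 when protein-coding partners alone were counted.

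TCF7 (chromosome 5, 134114711 to 134151865, plus strand, GRCh38), encoding the T cell transcription factor TCF-1, held 313 and 358 counts in replicates 1 and 2, or 310 and 269 CPM. Exact 95% Poisson intervals were 277 to 347 CPM and 241 to 298 CPM, and the exact binomial test did not separate the libraries (adjusted p = 0.623, Benjamini-Hochberg). Across the 4452 protein-coding genes with a protein-coding gene opposite, 6.45% held at least as many counts over both libraries. Its partner SKP1, on the minus strand, encodes a subunit of SCF ubiquitin ligases that most cell types use. SKP1 itself held 0 and 2 counts.

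The overlap of the pair is small. SKP1 covers 210 of the 10063 exon bases of TCF7 (2.09%), in an outermost TCF7 exon (134151656 to 134151865) that 1 of 24 annotated transcripts carries. These bases lie wholly within the last merged exon of SKP1, 9694 bases long, and hold no 3′ splice site of SKP1. The exon before it, 4645 bases long, stops 698 bases short of the annotated 3′ end of SKP1. Spread over all exons of TCF7, its counts came to 66.7 per kb. Had they all come from the 210 bases they would amount to 3195 per kb. The density of pieces this short was not measured in other genes, so this value has no like to be set against. Which exons of TCF7 gave the reads, and whether RNA of SKP1 did, was not tested, since the table holds no positions.

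**Figure D3:**
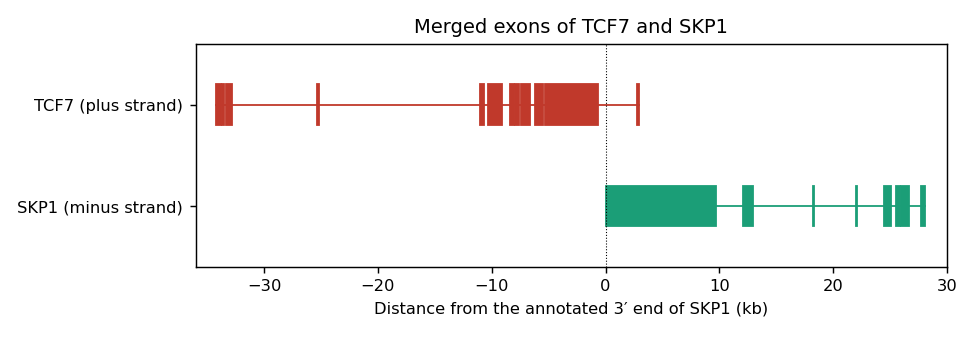
Merged exons (blocks) and spans (lines) of TCF7 on the plus strand and SKP1 on the minus strand, by distance in kb from the annotated 3′ end of SKP1 (dotted line). The genes share 210 bases of exon, at the small rightmost block of TCF7, while its 4645-base exon ends left of the dotted line.

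Similar pairs were taken as a yardstick, a comparison chosen after the values were seen. Among 396 protein-coding genes with 1 opposite gene, itself protein-coding, that shares 100 to 400 exon bases and no 3′ splice site of the partner, the median was 22.5 counts. Of them 49.2% reached 10 counts in both libraries. As many counts as TCF7 were held by 2 (0.505%), and TCF7 is 1 of the 2. Where a single opposite protein-coding gene has a 3′ splice site inside the exons (799 genes), the median was 95 counts and 13.9% held as many as TCF7.

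JCHAIN is the other marker with a protein-coding gene opposite. It encodes the joining chain of IgM and IgA and lies wholly inside ENAM, a tooth enamel protein gene, which covers all 1680 of its exon bases and has 1 3′ splice site within them. JCHAIN held 0 counts in both libraries and ENAM held 3 and 6.

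Among the 6 markers with a non-coding gene opposite, the counts of the partner exceeded those of LEF1 and POU2AF1 in both libraries. LEF1, a transcription factor gene of the same family as TCF7, held 5 and 7 counts, against 60 and 88 for LEF1-AS1, which covers 1402 of its 5361 exon bases. Summed over the libraries and divided by exon length, LEF1 had 2.24 counts per kb and LEF1-AS1 30.8. Only 309 of the 4799 exon bases of LEF1-AS1 lie within the span of LEF1, so the table cannot place its counts opposite LEF1. POU2AF1, a B cell transcriptional coactivator gene, held 0 and 3 counts, and AP002008.2 opposite it held 6 and 15. BANK1, a B cell scaffold protein gene, held 9 and 12 counts, and AP002075.1 opposite it held 3 and 9. The 776 exon bases of BANK1 that AP002075.1 covers all lie within introns of AP002075.1.

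Little was seen in the remaining pairs. PAX5, the B cell identity factor gene, held 0 and 1 counts and AL161781.2 opposite it 1 and 0. CD8B held 1 and 0 counts with ANAPC1P1 at 0. BLK, a kinase gene of the B cell receptor pathway, held 0 counts in both libraries, as did AC022239.1, which spans 2511 of its 5077 exon bases. CD8B has a near-identical copy in the genome, and multimapping reads were tallied apart from the gene counts, so its level is uncertain.

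**Figure D4:**
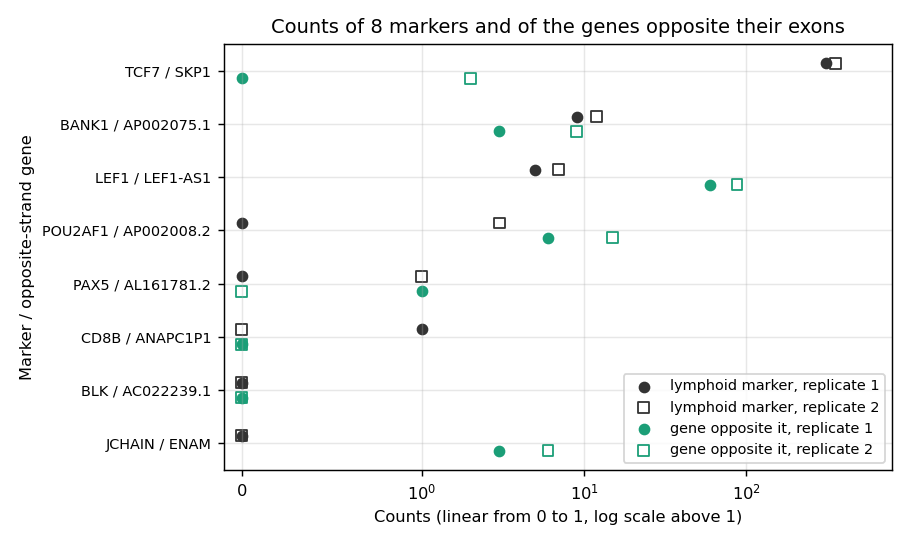
Counts in replicate 1 (filled circles) and replicate 2 (open squares) of the 8 lymphoid markers with an opposite-strand gene over their exons (black) and of those genes (green), on an axis linear up to 1 and logarithmic above. TCF7 with 313 and 358 counts stands far above SKP1, while LEF1-AS1 with 60 and 88 stands above LEF1.

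Of the 26 markers without an opposite gene over their exons, CD4 held the most counts. CD4 (chromosome 12, 6786858 to 6820808, plus strand), the coreceptor of helper T cells, held 70 and 91 counts, or 69.4 and 68.3 CPM (exact 95% Poisson intervals 54.1 to 87.7 and 54.96 to 83.8). Both libraries gave nearly the same level, and the exact binomial test did not separate them (adjusted p = 1). As many counts were held by 2.25% of the 11446 protein-coding genes with no opposite gene. GPR162, which starts 737 bases past CD4 on the same strand and also has no opposite gene, held 69 and 87 counts, and the next gene P3H3 35 and 49. LAG3, an inhibitory receptor gene on the other side of CD4, held 2 and 2.

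CD5 and CD6, genes for scavenger-type receptors of T cells that both lie on chromosome 11, plus strand, followed at lower levels. CD5 (61102395 to 61127852) held 27 and 47 counts, or 26.8 and 35.3 CPM. CD6 (60971680 to 61020377) held 15 and 18 counts, or 14.9 and 13.5 CPM. The exact binomial test separated the libraries for neither gene (adjusted p = 0.883 for CD5 and 1 for CD6). VPS37C, on the opposite strand, ends 2404 bases past CD5 and held 3 and 1 counts.

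VPREB1 (chromosome 22, 22244675 to 22245515, plus strand), encoding a chain of the surrogate light chain of pre-B cells, was the only B cell marker with at least 10 counts in each library. It held 20 and 54 counts, or 19.8 and 40.5 CPM, and the 95% Poisson intervals reached 30.6 in replicate 1 and began at 30.4 in replicate 2. Replicate 2 was 2.04-fold higher, which passed the exact binomial test before adjustment (p = 0.00653) and not after it (adjusted p = 0.312). VPREB1 has 755 exon bases, and summed over the libraries it held 98.0 counts per kb of exon, against 66.7 for TCF7, 35.1 for CD4 and 23.0 for CD5. The order of VPREB1 and TCF7 turned between the libraries: VPREB1 held 26.5 and TCF7 31.1 counts per kb in replicate 1, and VPREB1 71.5 and TCF7 35.6 in replicate 2. Of the protein-coding genes with no opposite gene, 0.795% were as dense. The nearest opposite-strand gene lay 14206 bases away, a processed pseudogene at 0 counts. On the same strand the non-coding gene AC245060.6, 19086 bases away, held 102 and 110 counts.

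Whether these counts could lie beside the 3′ end of an opposite-strand gene just outside the span was then described, a comparison chosen after the values were seen. Among protein-coding genes with no opposite gene over their exons, 1767 had the 3′ end of an opposite-strand protein-coding gene within 5 kb past their own 3′ end. Their median was 11 counts and 36.6% passed, against 2 counts and 7.83% of the other 9679 genes. The markers of the first kind were CD5, CD247 and FCER2, and the other 23 included CD4, CD6 and VPREB1. CD247, the zeta chain of the T cell receptor complex, held 6 and 14 counts, with POU2F1 ending 3295 bases from it. FCER2, the low-affinity IgE receptor gene, held 0 and 2. CD4, CD6 and VPREB1 held 161, 33 and 74 counts over both libraries. Only annotated protein-coding 3′ ends within 5 kb were considered, and where the reads of these genes came from was not tested.

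The rest of the markers are best read by role. Of the T cell receptor complex, CD3D held 0 counts in both libraries, CD3E 0 and 1, and CD3G 1 and 2. Its kinases LCK and ZAP70 held 3 and 5, and 9 and 6. The coreceptor gene CD8A held 3 and 4, and the costimulatory receptor gene CD28 held 2 and 0. CD2, an adhesion receptor gene, held 0 and 1, while CD7 and TRAT1 held 0 in both libraries. BCL11B, a T cell commitment factor gene, held 2 and 5, and the interleukin 7 receptor gene IL7R held 2 and 2. In these genes 1 count was worth about 0.992 CPM in replicate 1 and 0.750 CPM in replicate 2.

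Among B cell genes, the receptor chains CD79A and CD79B held 1 and 0, and 0 and 0 counts. Their coreceptor CR2, a complement receptor, held 5 and 3, and the inhibitory lectin gene CD22 held 1 and 0. MS4A1, which encodes CD20, held 0 and 4. The early B cell factor gene EBF1 held 1 and 4, FCRLA 1 and 3, and the BAFF receptor gene TNFRSF13C 2 and 1. Reads shared with a same-strand gene over their exons could be lost as ambiguous for CD22, CD79B and TNFRSF13C. Of the T cell markers 4 of 19 passed (21.1%) and of the B cell markers 1 of 15 (6.67%), against 24.8% of all protein-coding genes. Median log2 CPM was 2.17 over the T cell markers and 1.38 over the B cell markers, against 1.78 over all protein-coding genes. The T minus B cell difference in median of 0.79 ranged from 0.45 to 1.57 under other settings. It was not tested, since genes are not replicates.

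Of the 5 markers that could be tested between the replicates, 0 differed after adjustment over all 8983 genes that reached 10 counts in both libraries (exact binomial test, Benjamini-Hochberg), against 0.501% of those genes. At an unadjusted p below 0.05 this was 1 of 5, VPREB1, against 8.56%. The remaining 29 markers lay below this minimum. With a minimum of 1 count in either library, 28 markers entered the test and 0 differed after adjustment, against 71 of all 30752 genes tested.

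Another 36 lymphoid genes outside the list gave values of the same order, with a median of 2.5 counts, against 4 for all protein-coding genes. Of these lymphoid genes 6 of 36 passed (16.7%), against 24.8% of all protein-coding genes. At 0 in both libraries were 9 of the 36, against 20.1% of all protein-coding genes. CD27, a lymphocyte costimulatory receptor gene, led with 516 and 639 counts, and the non-coding CD27-AS1 lies opposite its exons. UBASH3A, a T cell signalling regulator gene with no opposite gene, held 45 and 44 counts. BLNK, an adaptor of the B cell receptor, held 15 and 23, opposite ZNF518A. CD72, a B cell coreceptor gene, held 16 and 14, opposite TESK1 and AL357874.1, and RAG2, a subunit of the V(D)J recombinase, held 14 and 14, opposite RAG1 and C11orf74. Of the 6 that passed, 4 had an opposite-strand gene, against 71.5% of the protein-coding genes that passed, and the exceptions were UBASH3A and NKG7, a cytotoxic granule gene with 13 and 10 counts.

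HEL's own lineages were set beside the markers as a check. Against 5 of the 34 lymphoid markers and 24.8% of all protein-coding genes, 6 of 20 erythroid (30%) and 5 of 15 megakaryocyte genes (33.3%) passed. All 11 of these passing lineage genes lay opposite another gene, against 71.5% of the protein-coding genes that passed. Where no gene lay opposite, 4 of 26 lymphoid markers passed, against 0 of 11 erythroid and 0 of 8 megakaryocyte genes. The share was 12.3% over all protein-coding genes with no opposite gene, so lists this short can hold few that pass. Genes with no opposite gene had a median of 4 counts among the lymphoid markers, 4 among the erythroid genes and 2 among the megakaryocyte genes. At 0 in both libraries were RHAG of the 20 erythroid genes and PF4 and GP1BB of the 15 megakaryocyte genes. Of all protein-coding genes, 20.1% were at 0 in both. The highest were SPTB (291 and 376 counts) among the erythroid genes and GP1BA (312 and 413) among the megakaryocyte genes. Differences between these lists were not tested.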

How the data were processed

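For 2 eCLIP libraries of HEL cells the authors deposited whole-number read counts of each gene, not normalized. The submitters' processing notes name cutadapt, STAR 2.7.0f and GRCh38.p10. How reads were counted, on which strand, with which annotation and with what treatment of duplicates is not given in the sources used here. Remaining PCR duplicates would narrow the intervals falsely. The 4 tally rows were left out. In replicate 1, 2.66% of uniquely mapped reads were counted to a gene, and in replicate 2, 2.60%. Reads counted to no gene numbered 36374618 and 50621073. As the strand setting is not given, these may include reads on the other strand of a gene.

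Genes were matched to GENCODE 29, and 32 of 34 markers had the same identifier version. Exons of all transcripts were merged. Library sizes were scaled by TMM in edgeR 4.0.16 (R 4.3.3) on genes that reached 10 counts in both libraries, giving factors of 1.01 and 0.987. A prior count of 2 was added before taking log2. The exact two-sided binomial test compared the libraries at a Benjamini-Hochberg threshold of 0.05. Its trial on simulated data used Poisson counts, which hold counting error only. That trial therefore does not show how the test behaves on real replicates. With 1 group, edgeR's quasi-likelihood test was not applicable. Python 3.11.15, scipy 1.17.1 and matplotlib 3.10.9 did the rest.

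The members and lists were chosen with earlier results of these data known. Named were all 34 markers, the genes opposite their exons and the 5 highest of the other lymphoid genes. Further genes (neighbours, lineage genes, NKG7) were chosen after their values were seen.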

Additional observations from a re-analysis of the deposited data

How the results depend on the processing

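No paired analysis was possible because the 2 replicates form 1 group. Scaling by DESeq2 1.42.0 size factors or by library totals moved no median and none of the 10 leading genes by more than the spread between replicates. In the replicate test 0 of 5 markers differed under these scalings, against 49 and 48 of all 8983 genes tested. With a minimum of 1 count in either library 0 of 28 markers differed, against 71 of 30752 genes. With a minimum of 5 counts 9 markers passed instead of 5; leaving out a replicate gave 5 to 7. Counting protein-coding partners alone left 2 of the 8 markers with an opposite gene. Requiring a partner exon over the marker's exons left 7. The median of the markers was 0.74 log2 CPM with a prior count of 0.5, 0.011 per kb of exon, 5.02 among the 5 markers with at least 10 counts in each library, and 1.43 to 1.83 without a replicate.

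The difference between markers with and without an opposite gene was -0.99 with a prior count of 0.5 and turned positive in 4 settings. It was 3.21 among markers with at least 10 counts in each library (1 against 4 genes), 0.15 per kb of exon, 0.47 when an opposite gene anywhere in the span counted, and 2.90 for protein-coding partners (2 genes). Without a replicate it was -0.56 to -0.19. The T minus B cell difference was 1.57 with a prior count of 0.5, 0.63 per kb of exon, 0.67 among markers with at least 10 counts, 0.60 without TCF7 and 0.45 to 0.55 without a replicate. The share of counts on markers with an opposite gene was 8.00% without TCF7 and 58.8% to 65.7% without a replicate. Apart from settings that leave few genes, the cause of these shifts was not tested. The 29 markers with fewer than 10 counts in a library were outside the replicate test at its usual minimum.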
